A study of Mus musculus with 203 samples.

Results

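The genes described here encode the machinery of oxidative phosphorylation. They were taken from the RNA-seq table of RAW cells by symbol: every gene whose symbol begins with Nduf followed by a, b, c, s or v, with Uqcr, with Cox and a digit from 4 to 8, or with Atp5, and the genes Sdha, Sdhb, Sdhc and Sdhd. The rule found 95 of the 25094 genes listed, and 92 of them also among the 16478 genes of the table of bone marrow-derived macrophages (BMDMs), which lacks Cox7b2, Cox8b and Cox8c. Sorted by complex, 37 encode subunits named for complex I, 4 complex II, 8 complex III, 17 complex IV and 17 complex V. The remaining genes were 8 assembly factors of complex I (Ndufaf1 to Ndufaf8), which assist its assembly, and 4 related genes (Cox7a2l, Ndufa4l2, Ndufa11b and Ndufb4c).

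RAW cells (RAW264.7) are a macrophage line from a BALB/c mouse. Both lines compared here carried a lentiviral short hairpin RNA and had been selected with puromycin: shGFP cells, the control, and shKDM1A cells, in which 1 hairpin targets Kdm1a, the lysine-specific histone demethylase also called LSD1. Each line was left without IL4 or given 20 ng/ml of IL4, the cytokine that drives alternative activation of macrophages, for 6 h. Each of the 4 resulting groups had 4 libraries. The study asked how KDM1A and the corepressor subunit GPS2 act on the IL4 response. The BMDM experiment compared wild-type mice with mice lacking Gps2 in macrophages, and its table holds the authors' own comparisons only, so it was used to count the genes and for nothing else. The labels do not say whether the libraries of a group came from separate cultures, and the study's methods state only for its experiments in general that biological replicates were used. Without separate cultures, p-values would measure only the spread between libraries, which may be technical. Kdm1a was targeted by 1 hairpin, so reduced KDM1A cannot be told apart from any other difference between the lines.

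Oxidative phosphorylation takes place in the inner membrane of mitochondria. Complex I oxidises NADH and complex II oxidises succinate, both hand electrons through ubiquinone to complex III, cytochrome c carries them on to complex IV, which reduces oxygen, and complex V, the ATP synthase, uses the proton gradient built along the way. Complexes I, III, IV and V combine nuclear-encoded subunits with subunits made from mitochondrial DNA, whereas complex II is wholly nuclear-encoded. In macrophages, alternative activation by IL4 is known for its reliance on oxidative metabolism, and classical activation for a shift to glycolysis and accumulation of succinate. The table lists 0 genes from mitochondrial DNA, so what follows covers nuclear-encoded subunits alone.

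The deposited values are on a log2 scale, and a level per length is given here as that value minus log2 of the transcript length in kilobases. By this measure, in shGFP cells without IL4, the tested subunits of complex V had a median level of 12.5 and those of complex IV 12.7, against 12.0 for complex III, 11.6 for complex II, 11.1 for complex I and 8.41 for the complex I assembly factors. The highest level per length was that of Atp5b, the catalytic beta subunit of ATP synthase, at 14.3, followed by Cox4i1 at 13.7 and Atp5a1, the alpha subunit, at 13.5. Within complex II, the iron-sulphur subunit Sdhb (11.5), the flavoprotein Sdha (11.3) and the membrane anchors Sdhc (11.6) and Sdhd (11.8) lay within 0.5 log2 of each other.

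The paired isoforms of complex IV were far apart. Cox4i2, the isoform of lung, had a level per length of 2.36 where Cox4i1 had 13.7. The muscle isoforms Cox6a2 (3.71) and Cox7a1 (7.08) were also far below their ubiquitous partners Cox6a1 (13.3) and Cox7a2 (11.7). Cox8b, Cox8c, Cox7b2 and Ndufa11b were listed at 0 in all 16 libraries, and Cox6b2, an isoform of testis, stayed between -2.09 and -2.08 on the deposited scale. These 5 genes did not reach a value of 1 in 4 libraries and were not tested, which left 90 genes. The 3 genes for subunit c of ATP synthase, Atp5g1, Atp5g2 and Atp5g3, encode the same mature protein, and their levels per length were 11.2, 12.5 and 13.3.

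**Figure D1:**
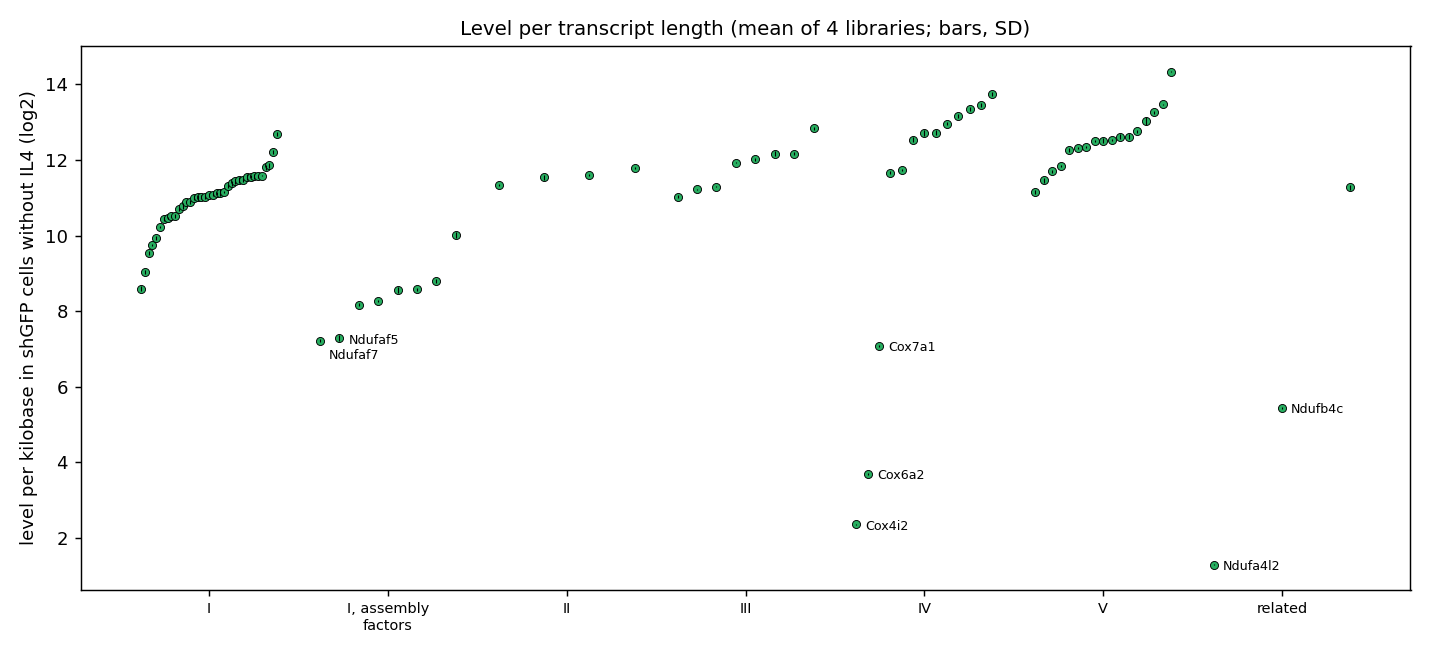
Level per transcript length of the 90 tested genes in shGFP cells without IL4, sorted within each complex; points are means of 4 libraries and bars, mostly smaller than the points, their SD. The medians of complexes I to V lie between 11.1 and 12.7 on this log2 scale, while the tissue isoforms Cox4i2, Cox6a2 and Cox7a1 and the related genes Ndufa4l2 and Ndufb4c lie well below.

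The 4 genes that were higher in shKDM1A cells without IL4 and the most strongly reduced genes for which a sequence was found, Ndufa5, Atp5g3 and Ndufs3, are shown here by their promoters. The 4 higher genes all lie in a stretch of chromosome 9, described below, in which most other genes were higher too. Each window is RefSeq sequence of build GRCm38.p6, which is not the build of the expression table (mm9), and runs from 250 bases before to 50 bases after the start of the gene, in the direction of the gene. Windows were found for 75 of the 95 genes, in 80 windows. The following 5 motifs were searched on both strands and may overlap one another: the core of the NRF1 site (GCGCATGC), the core bound by ETS factors such as GABP (CCGGAAG), the YY1 core (AAGATGGC), the SP1 box (GGGCGG) and the E-box (CACGTG). Capitals mark every match. For Ndufa5 the first of 2 windows is shown.
Atp5l (chr9:44920693-44920992, minus strand): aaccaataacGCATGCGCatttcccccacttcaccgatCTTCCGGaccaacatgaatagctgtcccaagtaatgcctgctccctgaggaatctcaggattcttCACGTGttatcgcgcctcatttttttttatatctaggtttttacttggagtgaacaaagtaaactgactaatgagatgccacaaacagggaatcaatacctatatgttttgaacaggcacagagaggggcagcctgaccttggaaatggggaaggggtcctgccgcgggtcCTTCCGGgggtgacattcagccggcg
Cox5a (chr9:57520982-57521281, plus strand): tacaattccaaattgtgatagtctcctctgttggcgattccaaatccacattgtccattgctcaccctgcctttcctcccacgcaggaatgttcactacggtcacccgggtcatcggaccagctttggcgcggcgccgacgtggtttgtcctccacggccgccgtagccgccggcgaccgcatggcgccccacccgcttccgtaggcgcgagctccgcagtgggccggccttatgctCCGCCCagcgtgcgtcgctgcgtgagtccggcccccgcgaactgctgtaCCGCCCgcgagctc
Cox7a2 (chr9:79759804-79760103, minus strand): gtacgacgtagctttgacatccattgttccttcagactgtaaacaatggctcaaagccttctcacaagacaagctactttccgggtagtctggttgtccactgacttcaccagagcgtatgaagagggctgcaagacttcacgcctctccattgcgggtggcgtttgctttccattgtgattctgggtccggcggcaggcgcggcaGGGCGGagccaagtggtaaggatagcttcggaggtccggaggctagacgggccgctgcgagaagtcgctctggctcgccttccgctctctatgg
Sdhd (chr9:50603800-50604099, minus strand): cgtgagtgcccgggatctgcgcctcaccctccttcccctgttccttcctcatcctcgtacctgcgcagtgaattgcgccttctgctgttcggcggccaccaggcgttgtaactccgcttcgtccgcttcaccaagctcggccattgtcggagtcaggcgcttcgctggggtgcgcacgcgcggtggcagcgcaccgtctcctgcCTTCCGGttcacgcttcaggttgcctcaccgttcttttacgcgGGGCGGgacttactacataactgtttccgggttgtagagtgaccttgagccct
Ndufa5 (chr6:24527477-24527776, minus strand): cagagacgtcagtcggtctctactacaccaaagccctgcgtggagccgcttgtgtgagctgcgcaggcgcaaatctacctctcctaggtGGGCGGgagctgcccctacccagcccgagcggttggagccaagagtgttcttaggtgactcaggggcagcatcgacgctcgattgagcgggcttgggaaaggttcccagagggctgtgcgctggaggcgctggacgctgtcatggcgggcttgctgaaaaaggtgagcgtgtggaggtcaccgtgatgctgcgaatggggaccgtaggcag
Atp5g3 (chr2:73911277-73911576, minus strand): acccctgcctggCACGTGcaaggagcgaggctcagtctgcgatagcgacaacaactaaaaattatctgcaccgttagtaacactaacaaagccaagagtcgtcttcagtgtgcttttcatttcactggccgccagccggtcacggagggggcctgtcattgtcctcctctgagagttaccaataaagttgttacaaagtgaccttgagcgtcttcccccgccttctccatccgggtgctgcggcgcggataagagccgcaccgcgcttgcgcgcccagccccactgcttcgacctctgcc
Ndufs3 (chr2:90904672-90904971, minus strand): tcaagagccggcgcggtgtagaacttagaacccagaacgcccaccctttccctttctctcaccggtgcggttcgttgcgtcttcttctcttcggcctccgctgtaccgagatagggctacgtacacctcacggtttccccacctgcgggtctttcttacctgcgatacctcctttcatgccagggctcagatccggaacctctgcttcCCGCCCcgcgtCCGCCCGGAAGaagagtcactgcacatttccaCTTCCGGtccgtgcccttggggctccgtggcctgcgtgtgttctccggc

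NRF1 and GABP are textbook regulators of nuclear genes for respiratory subunits. The NRF1 core was found in 12 of the 80 windows (15.0%) and in 2.71% of all 32851 promoter windows. The ETS core was found in 19 (23.8% against 8.86%) and the YY1 core in 10 (12.5% against 2.75%). SP1 boxes (43.8% against 35.7%) and E-boxes (7.5% against 7.15%) were closer to their share among all windows. Among the promoters printed, that of Atp5l held an NRF1 core, and ETS cores stood in those of Atp5l, Sdhd and Ndufs3. Members lower with shKDM1A without IL4 had 39 windows and the other tested members 38. The ETS core stood in 33.3% of the former and 15.8% of the latter, and the NRF1 core in 12.8% and 18.4%. The YY1 core stood in 12.8% and 13.2%, SP1 boxes in 38.5% and 47.4%, and E-boxes in 5.13% and 10.5%. Whether these shares differ was not tested. A match describes letters only and is not evidence of binding.

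Depth ranged from 17554721 to 27782568 tags per library. Kdm1a was lower in shKDM1A than in shGFP cells by a log2 fold change of -0.88 without IL4 and -0.79 with IL4, with no overlap between libraries. IL4 lowered Kdm1a in shGFP cells by 0.08 (adjusted p = 0.048), its log2 fold change with IL4 in shKDM1A cells was 0.02 (adjusted p = 0.71), and the difference between these effects did not pass the test (adjusted p = 0.16). Of 8 macrophage markers, 7 were tested and all 7 differed between the lines in both conditions. In either condition 5 were higher in shKDM1A cells (71.4%, beside 19.7% of all tested genes without IL4 and 20.9% with it) and 2 lower (28.6%, beside 18.4% and 19.8%). Without IL4 their log2 fold changes ran from -0.45 for Fcgr1 to 0.41 for Itgam, while 0 of 4 T cell, 0 of 3 B cell and 0 of 4 epithelial markers reached the level needed for a test. Their part in the results was not tested. A pair of libraries stood apart for the genes of oxidative phosphorylation: averaged over the 90 genes, replicate 4 of shGFP cells lay 0.09 above the mean over all 16 libraries while the other shGFP libraries lay 0.02 to 0.06 above it, and replicate 3 of IL4-treated shKDM1A cells lay 0.05 above while the others of its group lay 0.009 to 0.06 below. The other tested genes longer than 5000 bases moved the opposite way in these libraries: their median deviation was -0.03 in replicate 4 of shGFP cells, where the other libraries of its group lay between -0.01 and 0.02. In IL4-treated shKDM1A cells it was -0.08 and -0.07 in replicates 1 and 3 but 0.01 and 0.006 in replicates 2 and 4. Its part in the results was not tested beyond the length trend removal given with them.

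Without IL4, the levels of most of these genes lay lower in shKDM1A than in shGFP cells. In shKDM1A compared with shGFP cells, 44 of the 90 tested genes fell (limma, Benjamini-Hochberg adjusted p under 0.05 over all 12905 genes tested), where 18.4% of all tested genes fell, and 4 rose, where 19.7% of all tested genes rose. The median log2 fold change over the 90 genes was -0.09, a change of -5.95%, and that over all tested genes was -0.003. The changes were small throughout, from -0.25 to 0.25, and 7 of the 48 exceeded 0.2 in size. Since these are bulk samples, fewer cells carrying a transcript and less transcript per cell cannot be told apart. Without replicate 4 of shGFP cells, the library with the highest levels, 36 genes fell (40.0%, beside 16.7% of all tested genes), 5 rose (5.56%, beside 18.8%) and the median was -0.07. With the length trend removed, an alternative chosen after seeing the data, 45 fell (50.0%, beside 19.3%), 5 rose (5.56%, beside 21.0%) and the median was -0.08. With a limit of 0.2 on the size of the change added to the test, 5 genes fell (5.56%, beside 4.1% of all tested genes) and 2 rose (2.22%, beside 8.37%).

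**Figure D2:**
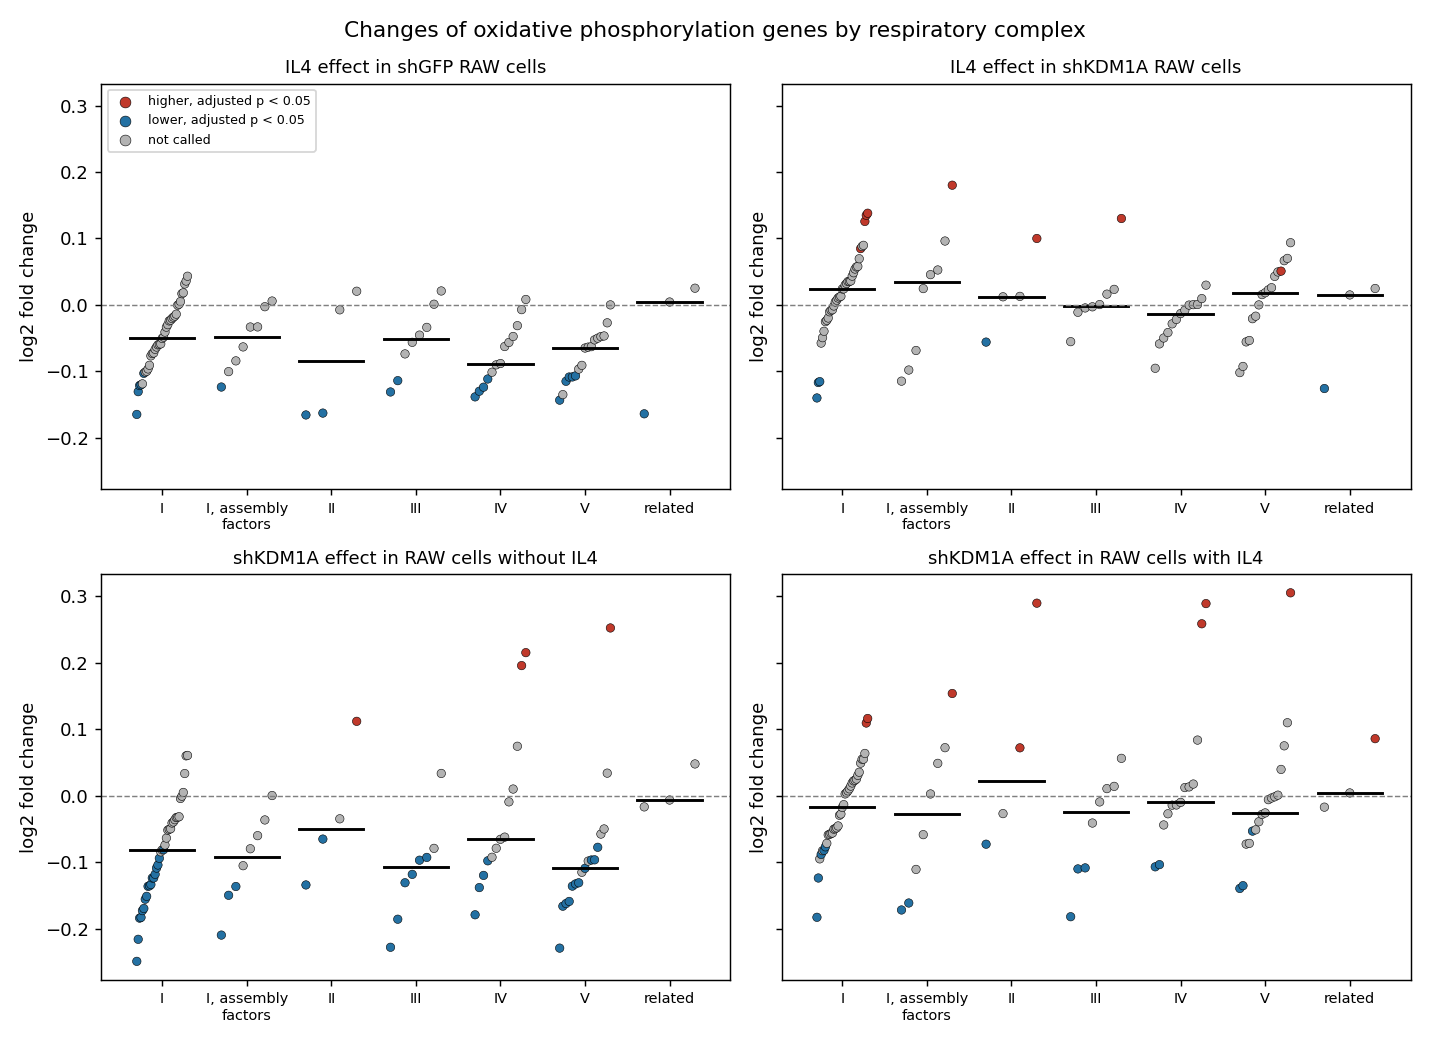
Log2 fold change of each tested gene (points) by complex in 4 comparisons, with the median of each set as a black line; colour gives the direction of genes with an adjusted p under 0.05 (limma). Without IL4 the shKDM1A effect lies below 0 for 76 of 90 genes, with 4 separate points above 0.1.

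In complex I, 18 of 37 subunits fell (48.6%, beside 18.4% of all tested genes) and 0 rose (beside 19.7%), with a median log2 fold change of -0.08. The largest reduction was that of Ndufa5, an accessory subunit of the matrix arm. Its values in the 4 shGFP libraries were 10.33, 10.23, 10.16 and 10.34, and in the 4 shKDM1A libraries 9.98, 10.00, 10.02 and 10.06. All 4 shKDM1A libraries were below all 4 shGFP libraries, by a log2 fold change of -0.25 (standard error of the estimate, SE, 0.038, adjusted p = 6.1e-05). Among the 7 nuclear-encoded core subunits, which carry the flavin, the iron-sulphur clusters and the quinone site, 4 fell: Ndufs3 (-0.22), Ndufv2 (-0.18), Ndufs8 (-0.17) and Ndufs1 (-0.14). The log2 fold changes of Ndufs7 (-0.08) and Ndufv1 (-0.04), the latter being the subunit that binds NADH, did not pass the test. Ndufs3 shares 88 exonic bases with Kbtbd4 and Ndufs1 shares 248 with Gm11602 on the other strand, and reads were counted without regard to strand, so their values may hold reads of those genes. Of the 30 accessory subunits, 14 fell. Ndufa4, named for complex I and since placed in complex IV, fell by 0.16.

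Of the 8 assembly factors of complex I, 3 were lower (37.5%, beside 18.4% of all tested genes) and 0 higher (beside 19.7%). Ndufaf8 had the largest log2 fold change, -0.21 (SE 0.050, adjusted p = 0.0032), followed by Ndufaf6 (-0.15), which assists assembly of the quinone arm, and Ndufaf4 (-0.14).

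Complex II, which is both an enzyme of the citric acid cycle and an entry point for electrons, had calls in both directions on the deposited values. Of its subunits 50.0% fell, beside 18.4% of all tested genes, and 25.0% rose, beside 19.7%. The catalytic subunits fell, Sdhb by 0.13 (SE 0.033, adjusted p = 0.0040) and Sdha by 0.07 (SE 0.017, adjusted p = 0.0060). Sdhc, a membrane anchor, had a log2 fold change of -0.03 that did not pass the test. The other anchor, Sdhd, rose: it read 12.17, 12.12, 12.09 and 12.16 in shGFP and 12.27, 12.26, 12.23 and 12.23 in shKDM1A libraries, without overlap, a log2 fold change of 0.11 (SE 0.022, adjusted p = 0.00086). This direction turned with its chromosomal surroundings: after subtraction of the median deviation of the genes within 5 Mb, an alternative chosen after seeing the data, Sdhd read -0.19 (adjusted p = 4.19e-05), below 0 as Sdha and Sdhb were.

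In complex III, 6 of 8 subunits fell (75.0%, beside 18.4% of all tested genes) and 0 rose (beside 19.7%), with a median of -0.11. Uqcrb, which lies at the ubiquinone site, read 11.05, 11.03, 11.03 and 11.06 in shGFP and 10.82, 10.81, 10.82 and 10.81 in shKDM1A libraries. The libraries of each line lay close together and the lines did not overlap, and the log2 fold change of -0.23 (SE 0.023) had the smallest adjusted p of these genes, 5.9e-07. Uqcrb and Uqcrc2 share exonic bases with genes on the other strand. Uqcrh, the hinge subunit, fell by 0.19, and the 2 core proteins Uqcrc2 and Uqcrc1 fell by 0.13 and 0.12. The Rieske iron-sulphur subunit Uqcrfs1 fell by 0.10, a call that was lost with the deviation of the genes within 5 Mb subtracted (-0.07, adjusted p = 0.050). Uqcrq, at 0.03 and not past the test, was the one subunit above 0.

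In complex IV, 4 of 13 tested subunits fell (30.8%, beside 18.4% of all tested genes) and 2 rose (15.4%, beside 19.7%). Cox5b, a zinc-binding subunit on the matrix side, read 11.94, 11.83, 11.86 and 11.93 in shGFP and 11.66, 11.73, 11.68 and 11.78 in shKDM1A libraries, all of the latter lower, with a log2 fold change of -0.18 (SE 0.033, adjusted p = 0.00040). The other genes within 5 Mb of Cox5b had a median of -0.08, and with their deviation subtracted in every library its log2 fold change was -0.12 (adjusted p = 0.016). Cox6c (-0.14), Cox8a (-0.12) and Cox6b1 (-0.10) also fell. Cox5a, which pairs with Cox4i1 on the matrix side, rose: its shGFP libraries read 12.20, 12.10, 12.11 and 12.26 and its shKDM1A libraries 12.40, 12.36, 12.32 and 12.45, again without overlap. The log2 fold change was 0.22 (SE 0.043, adjusted p = 0.00077), and Cox5a shares 267 exonic bases with Gm17596 on the other strand. Cox7a2, the ubiquitous isoform of a small membrane subunit, read 11.31, 11.28, 11.28 and 11.34 in shGFP and 11.42, 11.49, 11.56 and 11.52 in shKDM1A libraries. All of the latter were higher, by 0.20 on the log2 scale (SE 0.037, adjusted p = 0.00050). Cox4i1 (-0.07), Cox6a1 (-0.06) and the muscle isoform Cox7a1 (0.07) did not pass the test.

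Complex V had the highest share of reduced subunits after complex III, with 11 of 17 lower (64.7%, beside 18.4% of all tested genes). In it 1 was higher (5.88%, beside 19.7%), and the median was -0.11. Atp5g3, the most abundant per length of the genes for subunit c of the rotor ring, read 12.76, 12.75, 12.77 and 12.81 in shGFP and 12.55, 12.53, 12.57 and 12.53 in shKDM1A libraries. All shKDM1A libraries were lower, and the log2 fold change was -0.23 (SE 0.026, adjusted p = 2.8e-06). Atp5g1 fell by 0.13, and Atp5g2 had a log2 fold change of -0.06 that did not pass the test. In the catalytic F1 head, 3 of 5 subunits fell, Atp5a1 by 0.13, Atp5b by 0.10 and Atp5d by 0.10, whereas the gamma subunit Atp5c1 had a log2 fold change of -0.05 with an adjusted p above the threshold. In the membrane part and the stalks, 8 of 12 fell and 1 rose. The latter was Atp5l, subunit g, which takes part in joining ATP synthase into dimers. It read 11.60, 11.59, 11.63 and 11.73 in shGFP and 11.87, 11.89, 11.92 and 11.89 in shKDM1A libraries, without overlap, a log2 fold change of 0.25 (SE 0.039, adjusted p = 7.2e-05).

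**Figure D3:**
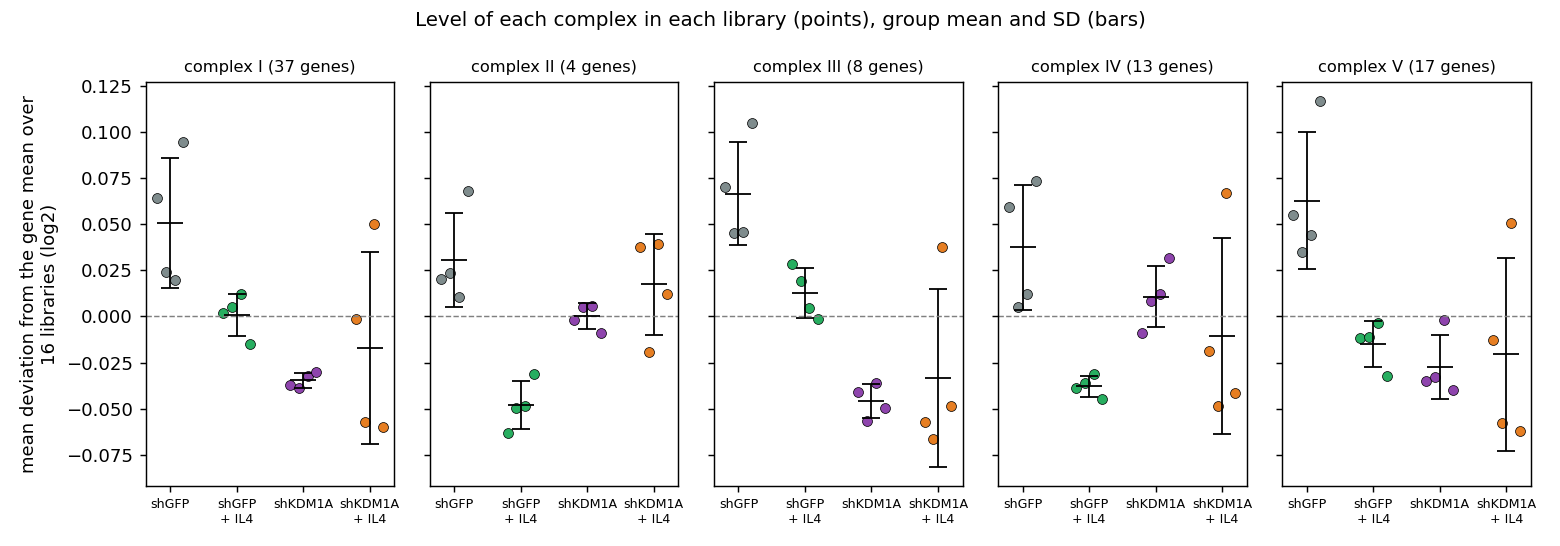
Mean deviation of the tested subunits of each complex from their mean over 16 libraries, for each library (points) with the group mean and SD (bars), on a log2 scale. In complexes I, II, III and V the 4 shKDM1A libraries without IL4 lie below all 4 shGFP libraries without IL4, whereas in complex IV they overlap. The IL4-treated shKDM1A libraries spread most.

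The 4 genes that rose share a chromosome. In mm9 coordinates, Atp5l lies on chromosome 9 from 44721331 to 44728825, Sdhd from 50404445 to 50411954, Cox5a from 57369039 to 57380233 and Cox7a2 from 79603048 to 79607660. Between 30 and 80 Mb of this chromosome, a stretch chosen after its values were seen, 206 other genes had a mean value of at least 8, and their median log2 fold change in shKDM1A against shGFP cells without IL4 was 0.30 (quartiles 0.22 and 0.40). Of these, 189 rose (91.7%) and 4 fell. On the rest of chromosome 9 the median over 250 such genes was -0.02 and 20.4% rose, and on the other chromosomes it was -0.01 over 7974 genes and 20.2% rose. The same stretch had a median of 0.30 in the comparison with IL4, but -0.005 for the IL4 effect in shGFP cells and -0.01 for that in shKDM1A cells. The other 2 members on chromosome 9, Ndufaf3 and Uqcrc1, start at 108467919 and 108838661 and had log2 fold changes of -0.04 and -0.12.

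Beside their neighbours, the 4 genes were not high. The genes within 5 Mb had medians of 0.32 around Atp5l, Sdhd and Cox5a and 0.23 around Cox7a2, against the genes' own 0.25, 0.11, 0.22 and 0.20. With the neighbours' median deviation subtracted in every library, an alternative chosen after seeing the data, the log2 fold changes became -0.07 for Atp5l, -0.11 for Cox5a and -0.01 for Cox7a2, none of which passed the test, and -0.19 for Sdhd (adjusted p = 4.19e-05). The count of genes that rose without IL4 went from 4 to 0. There were 44 genes that fell, of which 41 were among the 44 that fell before the subtraction, and Sdhd was among the 3 others. The number of DNA copies of this stretch in the 2 lines was not tested.

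**Figure D4:**
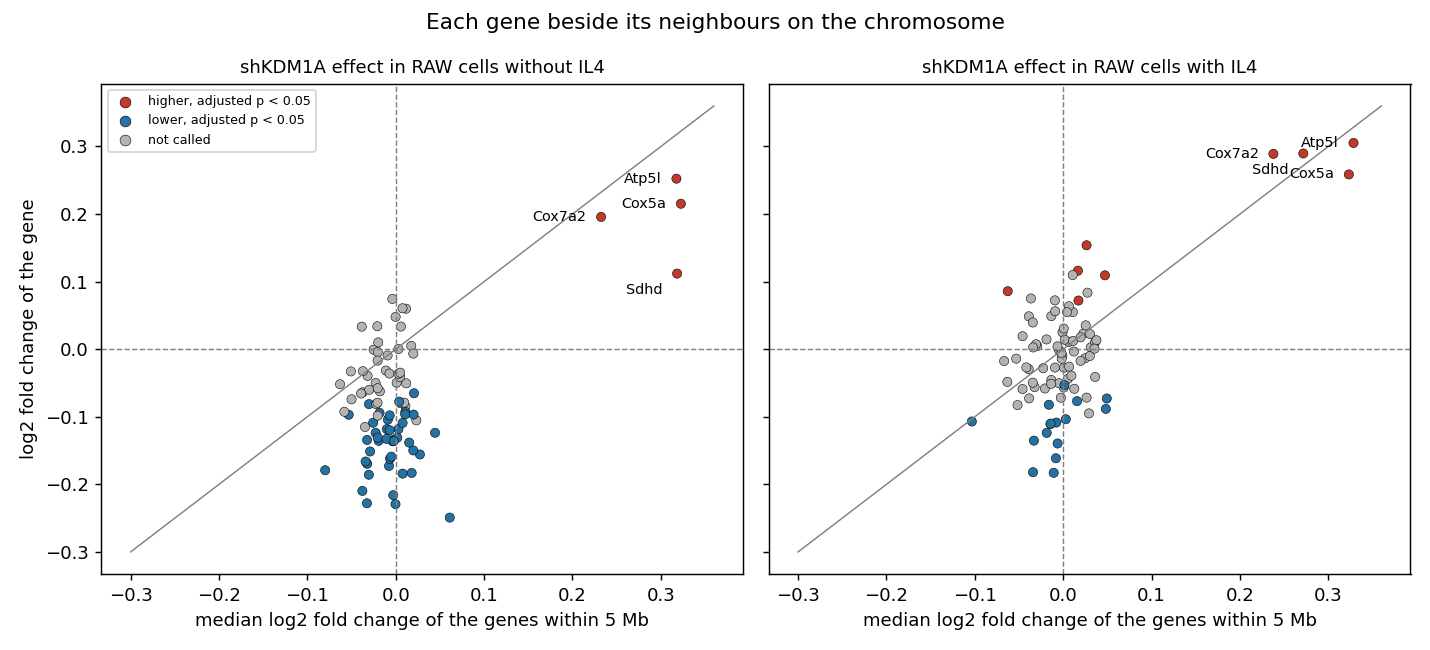
Log2 fold change of each gene in shKDM1A against shGFP cells (vertical) beside the median log2 fold change of the other genes within 5 Mb (horizontal), without IL4 (left) and with IL4 (right); the solid line marks equality and colour the call. Atp5l, Cox5a, Cox7a2 and Sdhd stand apart to the right, with neighbours between 0.23 and 0.33, while the neighbours of genes on other chromosomes lie between -0.10 and 0.06.

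With IL4 in both lines, 25 of these genes passed the test. In IL4-treated shKDM1A against IL4-treated shGFP cells, 16 of the 90 fell, where 19.8% of all tested genes fell, and 9 rose, where 20.9% of all tested genes rose, with a median of -0.01. These values moved with the processing. With the length trend removed, an alternative chosen after seeing the data, 25 fell (27.8%, beside 18.8% of all tested genes) and the median was -0.04. With only the compared groups in the model 10 fell (11.1%, beside 17.6% of all tested genes). Under quantile normalization 5 rose (5.56%, beside 18.5%) and 20 fell (22.2%, beside 22.6%), with a median of -0.05. Under median centring the median was -0.004. Of the 44 genes lower without IL4, 14 (31.8%) were also lower with IL4, and these are 87.5% of the genes lower with IL4. Over all tested genes the same overlap was 58.8% of the genes lower without IL4 and 54.7% of those lower with IL4. No library is shared by the 2 comparisons. All 4 genes of the chromosome 9 stretch rose again, Atp5l by 0.31, Cox7a2 by 0.29, Sdhd by 0.29 and Cox5a by 0.26, and after subtraction of the neighbours' deviation Cox7a2 alone of them passed the test, at 0.10 (adjusted p = 0.045), with Atp5l at -0.02, Cox5a at -0.06 and Sdhd at 0.02. The other 5 genes that rose were Ndufaf6 (0.15), Ndufv3 (0.12), Ndufa2 (0.11), Cox7a2l (0.09) and Sdhc (0.07). With the neighbours' deviation subtracted, Ndufaf6 (0.15) and Cox7a2l (0.14) passed the test, and Ndufv3 (0.08), Ndufa2 (0.02) and Sdhc (0.03) did not. Atp5g2, at 0.08 and not past the test before, then passed at 0.09, so that 4 genes in all were higher.

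Among the 14 genes lower in both conditions, Ndufa5 had a log2 fold change with IL4 of -0.18 (adjusted p = 0.0010), Uqcrb of -0.18 (adjusted p = 7.9e-06), Atp5g3 of -0.14 (adjusted p = 0.00045) and Cox5b of -0.11 (adjusted p = 0.016). The genes within 5 Mb of Cox5b had a median of -0.10, and its log2 fold change was -0.03 (adjusted p = 0.54) once their deviation was subtracted. Core subunits of complex I were also among them, namely Ndufs1 (-0.12), Ndufs3 (-0.08) and Ndufv2 (-0.08), as was Sdha (-0.07) in complex II. With the neighbours' deviation subtracted, Ndufs3 read -0.08 and did not pass the test (adjusted p = 0.082), and Sdha read -0.11. The assembly factor Ndufaf4, lower in both conditions too, fell by 0.17 with IL4. Ndufaf7 fell by 0.16 with IL4 but was not among the 14, since its log2 fold change of -0.08 without IL4 did not pass the test. By complex, 5 of 37 subunits fell in complex I, 1 of 4 in complex II, 3 of 8 in complex III, 2 of 13 in complex IV and 3 of 17 in complex V. These shares were 13.5%, 25.0%, 37.5%, 15.4% and 17.6%, beside 19.8% of all tested genes, so that in complexes I, IV and V they were below that of all genes. The sign of the median over the 90 genes turned with single libraries of the IL4-treated shKDM1A cells: with all libraries 51 genes lay below 0, without replicate 3 the median was -0.04 and 64 lay below 0, without replicate 2 it was 0.004 and 42 lay below 0, and without replicate 4 it was 0.001 and 44 lay below 0.

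IL4 itself lowered part of these genes in shGFP cells. This comparison, that of shKDM1A without IL4 and the difference of the IL4 effects all use the same shGFP libraries without IL4. The mean deviation of the 90 genes was 0.05 in that group. It was -0.009 in shGFP cells with IL4, and -0.025 and -0.017 in shKDM1A cells without and with IL4. The results of these comparisons are therefore not separate from one another. Of the 90 genes, 20 fell, where 13.7% of all tested genes fell, and 0 rose, where 13.1% of all tested genes rose, with a median log2 fold change of -0.06. At an unadjusted p under 0.05, 0 genes were above 0, where 17.7% of all tested genes were, and 37 (41.1%) below, where 18.7% were. The largest reductions in each complex were those of Ndufa2 (-0.16) in complex I, Sdhd (-0.17) and Sdhc (-0.16) in complex II, Uqcrh (-0.13) in complex III, Cox8a (-0.14) in complex IV and Atp5j2 (-0.14) in complex V. Among the 20 core subunits, 3 fell: Sdhc, Sdhd and Uqcrfs1 (-0.11). The catalytic subunits Sdha, with a log2 fold change of 0.02, and Sdhb, with -0.01, did not pass the test, so within complex II the calls were on the membrane anchors. Sdhc read 11.81, 11.83, 11.79 and 11.86 without and 11.66, 11.67, 11.65 and 11.67 with IL4, without overlap (SE 0.020, adjusted p = 8.2e-06). Cox7a2l, one of the related genes, fell by 0.16 (adjusted p = 0.00070). Without replicate 4 of shGFP cells 14 genes fell (15.6%, beside 11.9% of all tested genes), and the median was -0.05. With the length trend removed, an alternative chosen after seeing the data, 19 fell (21.1%, beside 14.5% of all tested genes). The median was then -0.04 and 68 genes lay below 0, where 75 did before.

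In shKDM1A cells the IL4 effect went both ways. Of the 90 genes, 8 rose, where 13.6% of all tested genes rose, and 5 fell, where 13.5% of all tested genes fell, with a median of 0.01. The 8 were Ndufaf6 (0.18), the core subunits Ndufs7 (0.14), Ndufs3 (0.13), Ndufv2 (0.13), Uqcrc1 (0.13) and Sdhb (0.10), Ndufa9 (0.08) and Atp5a1 (0.05). The 5 were Ndufa1 (-0.14), Cox7a2l (-0.13), Ndufa2 (-0.12), Ndufb3 (-0.12) and Sdhc (-0.06). All 5 also fell with IL4 in shGFP cells, where they make up 25.0% of the genes that fell. Over all tested genes the genes lower in both lines were 51.5% of those that fell in shGFP cells and 52.3% of those that fell in shKDM1A cells. The 2 comparisons share no library. The median was 0.004 with the length trend removed and 0.02 under median centring. The counts rest on single libraries: without replicate 3 of the IL4-treated cells 4 genes rose and 9 fell and the median was -0.01, without replicate 4 of that group 13 rose and 3 fell, and without replicate 2 of shKDM1A cells 5 rose and 2 fell. Without replicate 1 of the IL4-treated cells, or replicate 4 of shKDM1A cells, 4 rose, and the number that fell was 2 without replicate 2 of the former and 3 without replicate 3 of the latter. In these fits 4.44 to 14.4% of the 90 genes rose, beside 11.6 to 13.6% of all tested genes. Of the 90 genes, 2.22 to 10.0% fell, beside 11.8 to 13.9% of all tested genes.

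The IL4 effect itself differed between the 2 lines in 3 genes. All 3 were higher in shKDM1A cells, where 3.56% of all tested genes were called higher, and 0 were lower, where 2.57% of all tested genes were called lower. At an unadjusted p under 0.05, 29 members (32.2%) were higher, where 11.8% of all tested genes were, and 0 lower, where 10.8% were. Ndufaf6 read 8.31, 8.30, 8.22 and 8.25 without and 8.11, 8.17, 8.14 and 8.16 with IL4 in shGFP cells. In shKDM1A cells it read 8.13, 8.16, 8.05 and 8.14 without and 8.34, 8.29, 8.26 and 8.31 with IL4. IL4 thus lowered it in one line and raised it in the other, with no overlap in either, and the effects differed by 0.30 (SE 0.039, adjusted p = 0.00029). This call held without any 1 of the 16 libraries, with differences from 0.28 to 0.32.

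Sdhd read 12.17, 12.12, 12.09 and 12.16 without and 11.99, 11.94, 11.95 and 12.00 with IL4 in shGFP cells, a fall of 0.17, whereas with shKDM1A it read 12.27, 12.26, 12.23 and 12.23 without and 12.30, 12.25, 12.27 and 12.23 with IL4. The latter groups overlapped, and the effects differed by 0.18 (SE 0.032, adjusted p = 0.0034). The chromosome 9 stretch around it had a median difference of -0.001 over 206 genes. Sdhc, its partner in the membrane anchor, fell with IL4 by 0.16 in shGFP and by 0.06 in shKDM1A cells. This difference of 0.11 (SE 0.028, adjusted p = 0.032) lay near the threshold. With any 1 library left out its size was 0.09 to 0.12, and it did not pass the test without replicate 2 or 4 of shGFP cells, 1, 2 or 3 of IL4-treated shGFP cells, 2 or 4 of shKDM1A cells or 3 of IL4-treated shKDM1A cells, with adjusted p from 0.050 to 0.068. Nor did it pass with the replicate number as a block (adjusted p = 0.057) or with values of at least 5 in 4 libraries required (0.065), both at the same difference. With the length trend removed the difference was 0.07 (adjusted p = 0.14), and with the neighbours' deviation removed 0.06 (adjusted p = 0.19). For the other members no difference passed the test. Of the 90 differences, 83 lay above 0 and 7 below, with a median of 0.07 beside -0.001 over all tested genes. The shGFP libraries without IL4, the group with the highest mean level of these genes, enter this comparison too. Without replicate 3 of IL4-treated shKDM1A cells the median was 0.04 and 14 lay below 0. Without replicate 2 of that group it was 0.08 and 9 genes passed the test (10.0% higher, beside 4.73% of all tested genes). Transcript length moved with this comparison: 72 of the 90 genes are no longer than 1500 bases, and the median difference was 0.02 over 2566 other genes of that length and -0.07 over 2171 genes longer than 5000 bases. With the length trend removed, an alternative chosen after seeing the data, the median over the members was 0.03 and 18 lay below 0. The low values of these long genes in replicates 1 and 3 of IL4-treated shKDM1A cells, given above, enter this comparison.

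**Figure D5:**
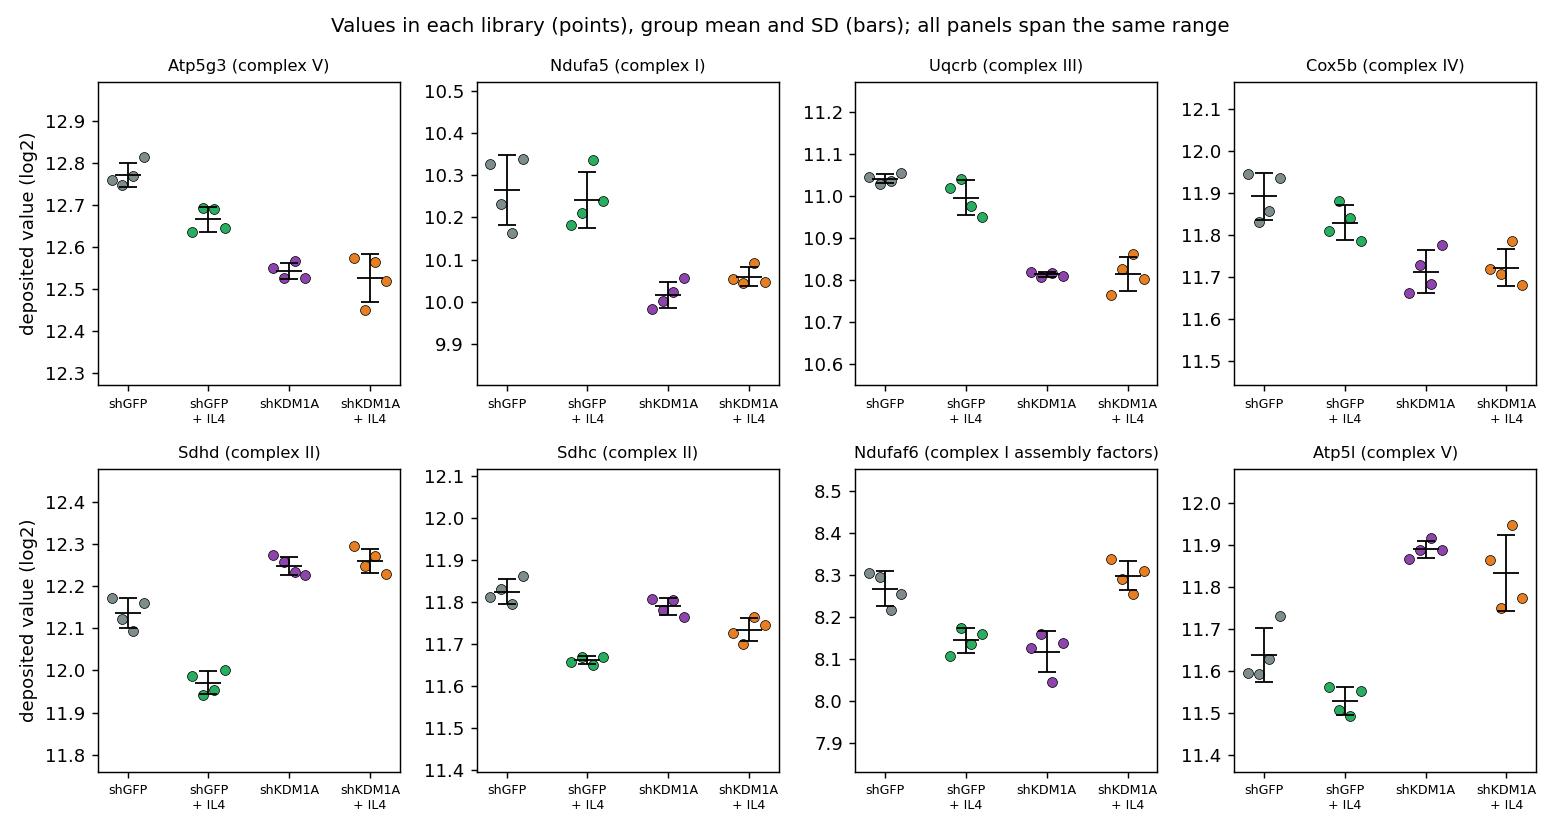
Deposited log2 values of 8 genes in each library (points), with group mean and SD (bars), on axes that span the same range. Atp5g3, Ndufa5, Uqcrb and Cox5b are lower in both shKDM1A groups, Sdhd and Atp5l higher in both, and Ndufaf6 falls with IL4 in shGFP cells and rises with it in shKDM1A cells.

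Genes that act with the complexes were taken from lists by role. Among 5 tested electron carriers, Cyc1, the cytochrome c1 that completes complex III, fell by 0.24 with shKDM1A without IL4 and rose by 0.17 with IL4 in shKDM1A cells, and the 2 IL4 effects differed by 0.18. Etfa, part of the flavoprotein that takes electrons from fatty acid oxidation, rose with shKDM1A by 0.31 without and 0.30 with IL4. Of 42 other assembly factors, 7 fell and 4 rose with shKDM1A without IL4, and 4 fell and 10 rose with IL4. As shares these are 16.7% lower and 9.52% higher without IL4, beside 18.4% and 19.7% of all tested genes, and 9.52% lower and 23.8% higher with IL4, beside 19.8% and 20.9%. Foxred1, a complex I assembly factor, had the largest log2 fold change of these, 0.33 without and 0.41 with IL4. Etfa and Foxred1 lie in the chromosome 9 stretch described above. Sdhaf2, which attaches the flavin to Sdha, fell by 0.17 with IL4 in shGFP cells, and its IL4 effect differed between the lines by 0.23.

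Among 19 tested regulators of mitochondrial biogenesis, 7 fell and 2 rose with shKDM1A without IL4, and 6 fell and 2 rose with IL4. The shares that fell were 36.8% and 31.6%, beside 18.4% and 19.8% of all tested genes, and 10.5% rose in either comparison, beside 19.7% and 20.9%. Ppargc1b, the coactivator PGC-1beta, fell by 0.22 without and by 0.31 with IL4. Nrf1 fell by 0.13 and Gabpa by 0.09 without IL4. Ppargc1a was at -2.27 on the deposited scale in shGFP cells, below the level needed for a test. Gabpa shares 397 exonic bases with Atp5j on the other strand, so their values are not separate. Of 17 genes of the citric acid cycle and pyruvate dehydrogenase, 7 fell (41.2%) and 3 rose (17.6%) with shKDM1A without IL4, and 3 fell (17.6%) and 4 rose (23.5%) with IL4. The extremes without IL4 were Dlat, a subunit of pyruvate dehydrogenase, at 0.34 and Pdha1, another subunit, at -0.18. Dlat and Idh3a (0.23) lie in the chromosome 9 stretch, and the third that rose without IL4, Pdhb, was at 0.10. With IL4 in shGFP cells, 8 assembly factors fell and 1 rose, 0 regulators fell and 2 rose, and 1 gene of the citric acid cycle list fell and 1 rose, where 13.7% of all tested genes fell and 13.1% rose. With IL4 in shKDM1A cells, 3 assembly factors fell and 5 rose, 1 regulator fell and 2 rose, and 0 genes of the citric acid cycle list fell and 2 rose, where 13.5% of all tested genes fell and 13.6% rose.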

How the data were processed

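RNA was measured by sequencing in 16 libraries of RAW cells (NEBNext Ultra II kit), 4 per group, with 17554721 to 27782568 tags each. As the study's methods and the submitters' processing notes state, the authors aligned reads to mouse build mm9 with HISAT2, Bowtie2 being named as well, counted exonic reads on both strands with HOMER, keeping 1 transcript per gene, and ran DESeq2 through HOMER. The deposited values are on a log2 scale and were written with decimal commas. The transformation is not named in the sources used here. Of the genes listed, 8488 are listed at 0 in every library, other low genes lie above or below 0 and vary little, and fold changes of low genes may be understated on this scale. The deposited fold change and p-value columns, and the whole BMDM table, hold the authors' own comparisons and were not used beyond counting gene symbols. Chromatin samples of the series were not analysed here.

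The deposited log2 values were taken without further scaling. The 12905 genes that reached 1 on this scale in 4 or more libraries were tested. One limma model (limma 3.58.1, R 4.3.3) with 4 group means gave the 5 comparisons, with Benjamini-Hochberg adjustment over all genes and calls at an adjusted p under 0.05. The model was tested on simulated data. Tables were made with Python 3.11.15 and pandas 2.3.3. Named genes are the core catalytic subunits, the paralogous families and, in each comparison and complex, the genes with the largest change in either direction past the threshold. Others were named after their values were seen, and 1 gene's own values are not reported here. Lists of electron carriers, assembly factors, regulators of biogenesis, citric acid cycle genes, mitochondrially encoded genes and cell markers were described by counts. Of the markers of other cells, 1 of 5 fibroblast and 1 of 4 neutrophil genes could be tested and neither was called. The members and lists were chosen with earlier results of these data known. The alternatives tried were other filters, scalings, models and left-out libraries, and, added after seeing the data, removal of the transcript length trend and of the median deviation of genes within 5 Mb. Promoters are RefSeq windows of GRCm38.p6. Genes without a window included Ndufa2, Ndufb9, Ndufs1, Ndufaf6, Sdhc, Uqcrb, Uqcrc2, Uqcrq, Cox4i1, Cox4i2, Cox6a2, Cox6c, Cox8c, Atp5a1, Atp5f1, Atp5mpl, Ndufa4l2, Ndufa11b and Ndufb4c. Exon overlaps with other genes came from the GENCODE annotation of mm9, and 14 members share at least 50 exonic bases with a gene on the other strand.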

Additional observations from a re-analysis of the deposited data

Results flagged for a closer look

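Among 212 gene and group combinations tested for 1 library lying apart from the other 3, 7 were marked, and chance marks about 1 in 20. In shGFP cells without IL4, replicate 4 stood above the others for Sdhb (11.7 against 11.6 in each of the others) and Uqcrc1 (12.8 against 12.7), whereas 1 library was below the others for Ndufaf8 (8.87 against 9.01 to 9.02). In shKDM1A cells without IL4, Ndufaf8 reached 8.80 in 1 library against 8.76 in the others. With IL4, Ndufa1 was at 9.47 in 1 shGFP library against 9.56 to 9.57, and Cox7a2 at 11.6 in replicate 3 of shKDM1A cells against 11.4 to 11.5. The mean deviation of the 3 tested related genes was -0.044 in 1 IL4-treated shKDM1A library against 0.002 to 0.009 in the others, on the log2 scale.

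The IL4 effect differed between shKDM1A and shGFP cells in the interaction term of the limma model for Ndufaf6 (0.30), Sdhd (0.18) and Sdhc (0.11), all higher in shKDM1A cells.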

How the results depend on the processing

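The changes are small, so counts move with the threshold: with a limit of 0.2 on the absolute log2 fold change, 0 genes were called for IL4 in either line (3.45 to 4.23% of all tested genes in either direction), 7 for shKDM1A without IL4 (2 higher, 2.22% beside 8.37% of all genes, and 5 lower, 5.56% beside 4.1%), 4 with IL4 (4 higher, 4.44% beside 8.23%, and 0 lower, beside 5.6%) and 1 for the difference (1 higher, 1.11% beside 0.961%). Under quantile normalization 1 gene was higher with IL4 in shGFP cells (1.11%, beside 13.0% of all tested genes). With IL4 in shKDM1A cells 5 were higher (5.56%, beside 13.5%), as were 5 with shKDM1A under IL4 (5.56%, beside 18.5%). Atp5a1 turned from -0.03, not past the test, to 0.050 (adjusted p = 0.035) for IL4 in shGFP cells. Fitting only the groups compared gave 8 genes for IL4 in shKDM1A cells, 5 higher (5.56%, beside 11.6% of all genes) and 3 lower (3.33%, beside 11.8%). It gave 10 lower with shKDM1A under IL4 (11.1%, beside 17.6%). Median centring gave 3 lower for IL4 in shKDM1A cells (3.33%, beside 12.1%) and 5 higher for the difference (5.56%, beside 4.32%). No filter on low values gave 5 higher for the difference (5.49%, beside 2.47%). Removal of the length trend gave 25 lower with shKDM1A under IL4 (27.8%, beside 18.8%). With neighbours' deviation removed, 1 gene was higher with IL4 in shGFP cells (1.11%, beside 13.0%) and 3 lower with IL4 in shKDM1A cells (3.33%, beside 15.3%). With shKDM1A, 0 and 4 were higher without and with IL4 (0% and 4.44%, beside 21.0% of all tested genes in either). Atp5l then read -0.073 and -0.020, Cox5a -0.11 and -0.057, and without IL4 Cox7a2 -0.013 and Sdhd -0.19. Subtraction of neighbours that are higher lowers a gene's own log2 fold change by construction. The cause of the moves was not tested for this or any other alternative.

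The replicate numbers are shared between groups but do not pair the libraries: 3 of 24 correlations between same-numbered libraries exceeded 0.1, the range was -0.34 to 0.27, and 6 of 16 libraries correlated best with their own number. With the replicate as a block, 20 genes fell with IL4 in shGFP cells (22.2%, beside 13.5% of all tested genes). With IL4 in shKDM1A cells 7 rose (7.78%, beside 13.4%) and 3 fell (3.33%, beside 13.4%). For shKDM1A without IL4, 43 fell (47.8%, beside 18.2%) and 4 rose (4.44%, beside 19.6%). For shKDM1A with IL4, 16 fell (17.8%, beside 19.8%) and 9 rose (10.0%, beside 20.6%). The difference passed in 2 genes (2.22% higher, beside 3.08%), and Sdhc had an adjusted p of 0.057.

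With any 1 library left out, the count for IL4 in shGFP cells lay between 14 and 28 (0 higher), for IL4 in shKDM1A cells between 7 and 16 (4 to 13 higher, 2 to 9 lower), for shKDM1A without IL4 between 40 and 51 (4 to 5 higher, 36 to 47 lower), with IL4 between 18 and 29 (6 to 10 higher, 11 to 23 lower), and for the difference between 2 and 9 (0 lower). Over the same fits, 11.8 to 14.2% of all tested genes fell with IL4 in shGFP cells. In shKDM1A cells 11.6 to 13.7% rose and 11.8 to 13.9% fell with IL4. For shKDM1A, 18.1 to 20.1% rose and 16.1 to 19.0% fell without IL4, and 19.0 to 21.0% rose and 17.4 to 20.0% fell with IL4. For the difference 2.32 to 4.73% were higher. The counts for IL4 in shKDM1A cells moved by over 1.5 times without replicate 2, 3 or 4 of shKDM1A cells or any of the IL4-treated shKDM1A libraries, and that for the difference without replicate 2 of the latter. Whether depth limits the calls of low isoforms was not tested.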
